A study of Mus musculus with 12 samples.

Results

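Tomm34 and 8 genes of the mitochondrial outer-membrane import machinery were described in mouse dorsal hippocampus, as 9 of the 24421 genes counted in 12 RNA-seq libraries. The 9 were taken by symbol (Tomm34, Tomm20, Tomm22, Tomm70a, Tomm40, Tomm40l, Tomm5, Tomm6 and Tomm7), and all 9 were among the 15622 genes that passed the filter on low counts. Tomm34 had been picked out because its level differed between the genotypes in these same libraries, so its genotype values are given as a description with no test. The other 8 were listed for their place in the translocase of the outer membrane (TOM), although the list was drawn up with results of these data known. The libraries came from male 129sv/C57BL/6j mice aged 4 to 5 months, labelled Mbnl2 WT or Mbnl2 KO, each either a house control or trained, with 3 libraries in each of the 4 groups. Mbnl2 encodes muscleblind-like 2, which binds RNA and regulates splicing. The labels describe neither the knockout allele and the cells it acts in, nor the training and the time between training and dissection. All 4 groups shared strain, sex, age range and tissue.

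Most mitochondrial proteins are made in the cytosol and are carried, often by HSP70 and HSP90 chaperones, to the TOM complex on the mitochondrial surface. There Tomm20, Tomm22 and Tomm70a bind the arriving proteins, Tomm40 forms the channel they pass through, and the small subunits Tomm5, Tomm6 and Tomm7 help to assemble and stabilise the complex. Tomm34 is different in kind: it is a mainly cytosolic co-chaperone whose tetratricopeptide repeats bind HSP70 and HSP90, and it is no subunit of the channel. Neurons depend on this import for the respiratory chain that powers synaptic signalling.

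Total counts per library ran from 19737929 to 27427076, a depth at which 3 counts correspond to 0.109 to 0.152 counts per 1e6 counted reads (CPM), and each of the 9 genes had at least 251 reads in every library. The count of Mbnl2 itself was higher in the KO-labelled libraries, at 454 to 542 CPM against 315 to 365 CPM in WT (1.42-fold, edgeR quasi-likelihood adjusted p = 0.00626). A count summed over all exons does not show which exons are present and so does not check the genotype labels, which are used here as given. Hippocampal pyramidal neuron markers (7 of 7 detected in every library) summed to 752 to 1420 CPM. Markers of neighbouring tissue were also present: 10 choroid plexus markers summed to between 54.0 and 15121 CPM in WT libraries and between 75.5 and 4751 CPM in the KO-labelled, and no marker of any list was at 0 in any library. Each title carries its own number, but the labels do not say that each library came from a separate mouse, so p-values measure the spread between libraries.

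Tomm34 was lower in every KO-labelled library than in any WT library. Its gene lies on chr2:164053540-164071169 (mm10, minus strand, coordinates from GENCODE M21), with a combined exon length of 3040 bases. In WT house controls Tomm34 measured 107, 88.1 and 98.4 CPM in replicates 1 to 3, and in trained WT mice 119, 111 and 110 CPM. In KO-labelled house controls it measured 70.1, 61.0 and 64.4 CPM, and in trained KO-labelled mice 71.1, 61.5 and 78.6 CPM. The highest KO-labelled library, at 78.6 CPM, stayed below the lowest WT library, at 88.1 CPM, so the 6 and 6 libraries did not overlap. Of the 15622 genes tested, 112 (0.717%) were lower in all 6 KO-labelled libraries in this way; the gene was chosen from this contrast, so nothing is read from that share. The values rest on 1333 to 2908 reads per library.

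**Figure D1:**
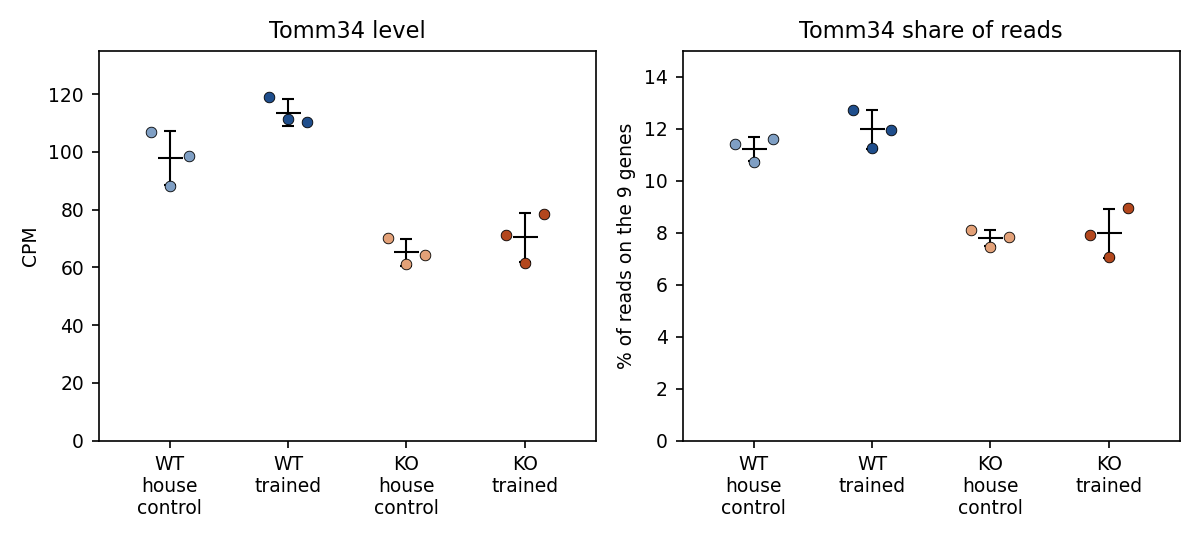
Tomm34 by library, as CPM (left) and as the share of all reads on the 9 genes (right), for the 4 groups. Points are libraries and bars are group means ± SD (n = 3). The KO-labelled libraries sit between 61.0 and 78.6 CPM and the WT libraries between 88.1 and 119 CPM.

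Tomm34 averaged 106 ± 10.9 CPM over the 6 WT libraries against 67.8 ± 6.77 CPM over the 6 labelled KO (SD), a log2 fold change of -0.64 (SE 0.07), or 1.56-fold. The size was similar in both treatments. In house controls the means were 97.9 ± 9.46 and 65.2 ± 4.55 CPM (SD, n = 3 each), the second 66.6% of the first, with a log2 difference of -0.59 (SE 0.10). In trained mice they were 113 ± 4.65 and 70.4 ± 8.58 CPM, the second 62.0% of the first, with a log2 difference of -0.69 (SE 0.10). The groups did not overlap in either treatment, as was so for 6.09% and 6.38% of all genes in this direction. The authors' deposited tables, which fit each treatment alone, list log2 changes of -0.58 (SE 0.13) and -0.69 (SE 0.12) for the same contrasts. In bulk tissue, fewer cells of a type that holds the transcript and less transcript per cell cannot be told apart.

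The difference had a like size in subsets of the libraries. Its sign was fixed beforehand, because the genotypes did not overlap in any library. Tomm34 was chosen for this difference in the same libraries, so the subsets are a description and no replication. The number that opens each library title falls into 2 separate ranges, whose meaning the labels do not give; libraries 1 to 8 have the lower and 9 to 12 the higher. In libraries 1 to 8, Tomm34 averaged 106 CPM over 4 WT libraries and 65.9 CPM over 4 KO-labelled ones. In libraries 9 to 12 it averaged 104 CPM over 2 WT libraries and 71.5 CPM over 2 KO-labelled ones. Tissue markers moved with some libraries: the 8 striatum and septum markers summed to 1041 and 1346 CPM in replicate 2 of the KO-labelled house controls and of the KO-labelled trained mice, which held the lowest Tomm34 levels, and to 889 CPM in replicate 3 of the WT house controls, against 196 to 275 CPM in the other 9. The 6 dentate granule neuron markers summed lowest in the same 2 KO-labelled libraries, at 171 and 219 CPM, against 338 to 874 CPM in the others. Without those 2 KO-labelled libraries the log2 fold change was -0.56, and it was -0.70 without the 3 libraries with the highest sums of 8 thalamus markers, replicates 2 and 3 of the WT house controls (292 and 445 CPM) and replicate 3 of the KO-labelled house controls (350 CPM, against at most 258 CPM in the other 9).

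As a share of all reads on the 9 genes, Tomm34 took 10.7% to 12.7% in the 6 WT libraries and 7.07% to 8.93% in the 6 KO-labelled ones. The summed level of the other 8 genes was 804 ± 53.1 CPM (SD, n = 6) where the label was WT and 791 ± 28.5 CPM where it was KO. The sums of the other 8 differed by less than the spread between libraries.

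The promoter of Tomm34 is shown beside those of 2 TOM receptor genes because they share a short motif. They are the 250 bases before the RefSeq start site (RefSeq, GRCm38.p6), 5′ to 3′ on the strand of the gene. RefSeq gives 2 starts for Tomm34, and the outermost is used. Capitals mark CCGGAAG or its reverse complement CTTCCGG, the core bound by ETS factors such as GABP, searched on both strands; adjoining matches overlap in Tomm22.
Tomm34, chr2:164071170-164071419, minus strand: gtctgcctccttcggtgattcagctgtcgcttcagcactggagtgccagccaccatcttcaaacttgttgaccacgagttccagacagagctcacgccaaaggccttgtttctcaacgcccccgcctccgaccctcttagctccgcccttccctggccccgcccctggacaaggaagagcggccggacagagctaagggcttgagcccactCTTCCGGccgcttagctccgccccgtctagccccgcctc
Tomm22, chr15:79670618-79670867, plus strand: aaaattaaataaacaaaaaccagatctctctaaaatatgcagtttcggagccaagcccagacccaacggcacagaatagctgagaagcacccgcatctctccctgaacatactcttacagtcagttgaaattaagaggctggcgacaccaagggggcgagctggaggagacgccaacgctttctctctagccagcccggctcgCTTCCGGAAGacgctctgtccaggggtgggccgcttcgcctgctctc
Tomm70a, chr16:57121464-57121713, plus strand: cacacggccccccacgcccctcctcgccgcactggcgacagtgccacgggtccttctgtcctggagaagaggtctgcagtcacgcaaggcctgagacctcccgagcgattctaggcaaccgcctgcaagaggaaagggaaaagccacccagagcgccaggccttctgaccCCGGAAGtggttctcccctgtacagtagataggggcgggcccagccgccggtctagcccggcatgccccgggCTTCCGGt

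The match in Tomm34 begins 39 bases before the start site. Tomm22 holds 2 overlapping matches in 1 palindrome, and Tomm70a holds 2 separate matches that begin 80 and 8 bases before the start. Promoter entries were matched for 7 of the 9 genes (Tomm40l and Tomm7 were not), and these 3 of the 7 held the ETS core, which 6.91% of 32851 promoter windows of that length hold. The 10-base palindrome of NRF1, searched as an exact match, was in none of the 7 and in 0.782% of all windows. Variants of that palindrome were not searched, so the promoters are not shown to lack an NRF1 site. The TGACG core of the cyclic AMP response element was in Tomm20 and Tomm5 and in 17.8% of all windows, and CCAAT was in Tomm40 (5 matches) and Tomm6 and in 33.8% of all windows, each searched on both strands. A match of letters describes the sequence and is not evidence of a bound site. The promoters that share the ETS core belong to 1 gene that was lower in every KO-labelled library and 2 whose genotypes overlapped. A link between the motif and these levels was not tested.

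The 3 receptor genes did not pass the test between genotypes. Tomm20, the receptor for proteins with a cleavable presequence (chr8:126930667-126945844, minus strand), measured 365, 309 and 301 CPM in WT house controls, 344, 390 and 345 CPM in trained WT mice, 331, 294 and 318 CPM in KO-labelled house controls and 333, 307 and 322 CPM in trained KO-labelled mice. Its genotype means of 342 ± 33.6 and 317 ± 14.8 CPM (SD, n = 6) gave a log2 fold change of -0.11 (95% interval -0.25 to 0.04, edgeR adjusted p = 0.493). Among trained mice all 3 KO-labelled libraries lay below all 3 WT libraries, with a log2 fold change of -0.17 (edgeR adjusted p = 0.842); 6.38% of all genes were lower without overlap in that contrast. House controls overlapped. Tomm20 was the TOM gene with the lowest fold change in both treatments, but its interval over both includes 0.

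Tomm22, the central receptor that links the others to the channel (chr15:79670861-79673400, plus strand), was the most even of the 9. Its levels ran from 38.6 to 44.3 CPM over all 12 libraries, with a coefficient of variation of 4.28%. The genotype means were 42.3 ± 1.32 and 42.1 ± 2.33 CPM, a log2 difference of -0.01 with a 95% interval of -0.11 to 0.09. Tomm70a, the receptor that docks HSP70 and HSP90 with carrier proteins (chr16:57121703-57156705, plus strand), averaged 215 ± 18.5 CPM among WT and 218 ± 16.5 CPM among KO-labelled libraries. Its genotype difference was 0.02 on the log2 scale (95% interval -0.10 to 0.14). The Tomm70a levels of the genotypes overlapped throughout. Tomm70a and Tomm34 both bind these chaperones through tetratricopeptide repeats. Since Tomm34 was chosen for its genotype difference, nothing is read from a comparison of Tomm70a with it.

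The channel genes lay slightly higher in KO-labelled libraries without passing the test. Tomm40, the pore itself (chr7:19701313-19715438, minus strand), measured 71.9, 65.6 and 65.1 CPM in WT house controls and 70.6, 65.0 and 66.5 CPM in trained WT mice. It measured 72.5, 70.1 and 68.7 CPM in KO-labelled house controls and 74.7, 71.6 and 71.3 CPM in trained KO-labelled mice. The means of 67.5 ± 3.02 and 71.5 ± 2.06 CPM (SD, n = 6) gave a log2 fold change of 0.08 (95% interval -0.01 to 0.18), with an edgeR adjusted p of 0.415, the lowest of the 8. All 3 trained KO-labelled libraries lay above all 3 trained WT libraries for Tomm40 and also for Tomm6, as did 7.61% of all genes. Tomm40l, a paralogue of the pore gene (chr1:171216011-171222514, minus strand), ran from 40.7 to 47.6 CPM in WT (median 44.8) and from 41.6 to 50.5 CPM in KO-labelled libraries (median 47.1), a log2 difference of 0.06 (95% interval -0.07 to 0.19).

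The small subunits also overlapped between the genotypes over both treatments. Tomm6 (chr17:47686646-47688386, minus strand) measured 48.1 to 51.5 CPM, median 49.9, in WT and 47.2 to 58.6 CPM, median 52.6, in the KO-labelled; its log2 difference of 0.09 (95% interval -0.03 to 0.21) was the highest of the 8. Tomm5 (chr4:45105208-45108114, minus strand), the least counted of the 9 at 251 to 416 reads, measured 12.3 to 16.7 CPM, median 13.3, in WT and 12.1 to 13.9 CPM, median 13.3, in KO-labelled libraries. Tomm7 (chr5:23838944-23844161, minus strand) measured 23.7 to 34.9 CPM, median 29.2, in WT and 26.8 to 30.6 CPM, median 28.5, in KO-labelled libraries. Among the 9, Tomm7 had the largest spread between libraries after Tomm34, with a coefficient of variation of 9.39%, and both of its extremes were WT house controls.

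**Figure D2:**
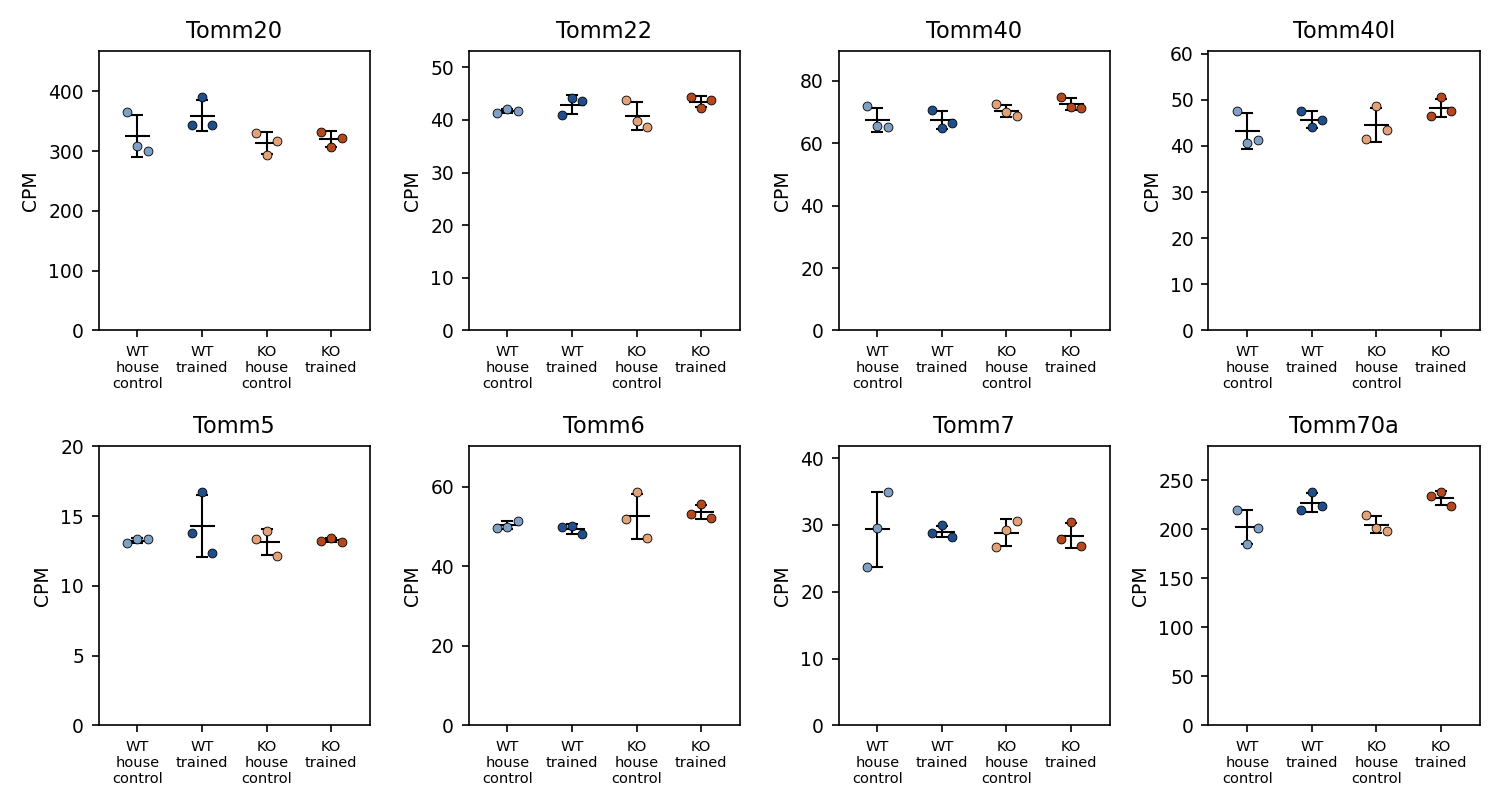
CPM of the 8 other genes by library in the 4 groups, 1 panel a gene. Points are libraries and bars are group means ± SD (n = 3). WT and KO-labelled libraries overlap in every panel over both treatments.

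Over both treatments, 0 of the 8 TOM genes passed edgeR's test between genotypes at an adjusted p of 0.05, where 90 of 15622 genes (0.576%) did. None of the 8 had an unadjusted p under 0.05, and DESeq2 also called 0 of them while calling 725 genes (4.64%). Their log2 fold changes ran from -0.11 to 0.09 with a median of 0.01, 4 above and 4 below 0, beside a median of -0.01 over all genes. In house controls 0 of the 8 passed (background 0.0128%) and fold changes ran from -0.05 to 0.06. In trained mice 0 of the 8 passed (background 0.0128%) and they ran from -0.17 to 0.12. DESeq2 called 0 of the 8 in house controls (1.29% of all genes) and 0 in trained mice (0.679%), and edgeR found 0 with an unadjusted p under 0.05 in either. The 95% intervals of the 8 over both treatments all lay between -0.25 and 0.21. Tomm34, at -0.64, was chosen for its genotype difference, so nothing is read from the gap between it and the 8.

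**Figure D3:**
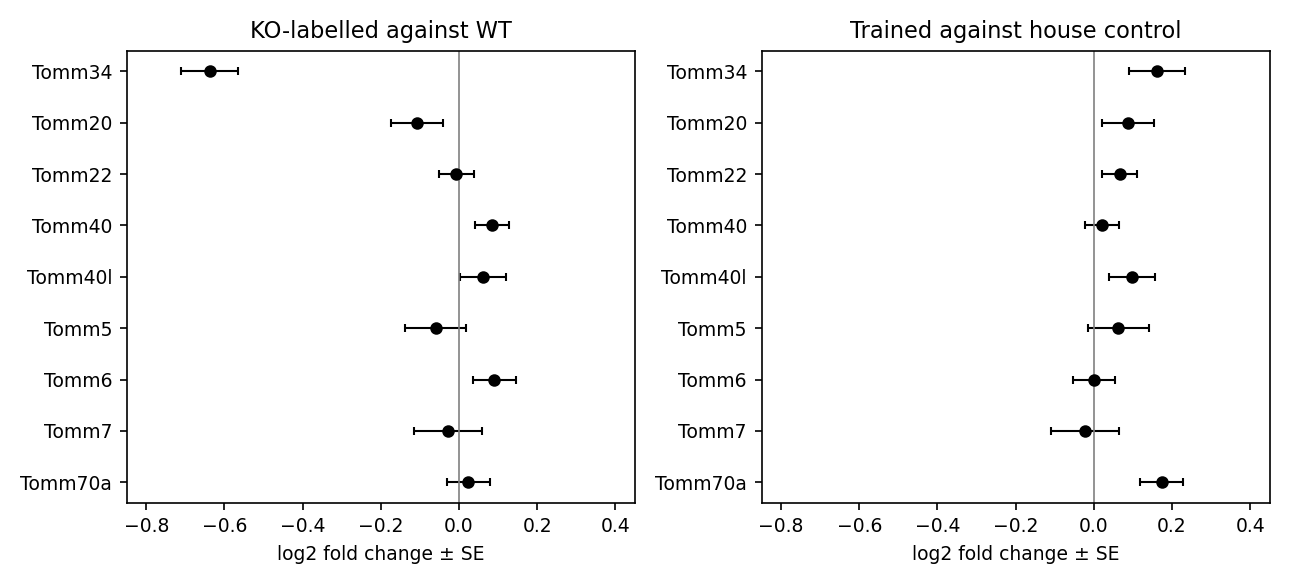
Log2 fold changes of the 9 genes between genotypes and between treatments, over both levels of the other factor; bars are ± SE from the fit to 12 libraries. The values of Tomm34 between genotypes are a description. The other 8 genes lie between -0.11 and 0.09 between genotypes, and Tomm70a has the highest value for training, 0.17.

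Training was compared with house control. Tomm34 was picked out by the genotype contrast and not by this one, although the 9 were listed with results of these data known. With edgeR, 0 of the 9 passed at an adjusted p of 0.05, and 0 of 15622 genes did (0%). At an unadjusted p under 0.05 there were 1744 genes, among them Tomm70a and Tomm34, and DESeq2 called 69 genes (0.442%), none of them among the 9. Tomm70a averaged 230 ± 7.94 CPM in trained mice and 204 ± 12.4 CPM in house controls (SD, n = 6 each). Its log2 fold change was 0.17 (95% interval 0.05 to 0.29), with an unadjusted p of 0.00927 and an adjusted p of 0.414 in edgeR's model across all genes, and it was 0.17 in WT and 0.18 in KO-labelled mice.

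By library, Tomm70a measured 220, 185 and 202 CPM in WT house controls and 219, 238 and 224 CPM in trained WT mice, so 1 house control reached the trained range. In KO-labelled mice the groups did not overlap: house controls measured 214, 202 and 198 CPM and trained mice 234, 238 and 224 CPM, a pattern that 3.34% of all genes showed in that direction. The difference was 0.18 on the log2 scale in libraries 1 to 8 and 0.16 in libraries 9 to 12. Refits with other settings or fewer libraries gave 0.10 to 0.21 over both genotypes. In WT they gave 0.05 to 0.23, and in KO-labelled mice 0.15 to 0.22. The 3 libraries with the highest thalamus marker sums are all house controls. Without them 1 WT house control was left, at 220 CPM of Tomm70a beside a trained WT mean of 227 CPM. Whether tissue makeup accounts for the Tomm70a difference was not tested. The authors' deposited tables give 0.17 in WT and 0.19 in KO, each with an adjusted p above 0.05 (0.566 and 1.00). Over both genotypes Tomm70a had the highest training value of the 9, which failed the correction over all genes, while in WT alone the value of Tomm34 was higher.

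Tomm34 was 0.16 higher on the log2 scale after training over both genotypes (95% interval 0.00 to 0.32; edgeR's model across all genes, unadjusted p of 0.0462, adjusted p of 0.444). In WT the 3 trained libraries (110 to 119 CPM) lay above the 3 house controls (88.1 to 107 CPM), as did 7.01% of all genes, and the log2 fold change was 0.21 (edgeR adjusted p = 0.502). In KO-labelled mice the ranges of 61.5 to 78.6 CPM and 61.0 to 70.1 CPM overlapped, with a log2 fold change of 0.11 (edgeR adjusted p = 1.00). The authors' deposited tables give 0.22 in WT and 0.12 in KO, also with adjusted p above 0.05 (0.509 and 1.00). The interaction, the training difference in KO-labelled mice minus that in WT, was -0.10 (95% interval -0.42 to 0.21, edgeR adjusted p = 1.00), so a difference between genotypes in the training response was not detected, and the interval leaves room for one larger than the training difference itself. The 3 libraries with the highest thalamus marker sums are all house controls, and without them the training difference was 0.10 over both genotypes and 0.09 in WT, where 1 house control was left at 107 CPM, and the interaction was 0.02.

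Of the 8 TOM genes, 7 had a positive log2 fold change for training, beside 47.7% of all genes. The values ran from -0.02 for Tomm7 to 0.17 for Tomm70a, with a median of 0.06 beside -0.01 over all genes. Tomm20 had 0.09, Tomm22 0.07, Tomm40l 0.10, Tomm5 0.06, Tomm40 0.02 and Tomm6 0.00, and each of these intervals includes 0. Over refits with other settings or fewer libraries, Tomm40 and Tomm6 each fell as low as -0.03. Tomm20, Tomm5, Tomm40l and Tomm22 stayed positive, with lows of 0.01, 0.01, 0.02 and 0.04. Tomm6 kept its sign in 13 of 20 and Tomm7 in 15 of 20, the latter reaching 0.16. Within single genotypes, edgeR called 0 of the 9 in WT (background 0%, 1534 genes at an unadjusted p under 0.05) and 0 of the 9 in KO-labelled mice (background 0%, 471 genes). DESeq2 called 16 genes (0.102%) in WT and 7 (0.0448%) in KO-labelled mice, none among the 9. For the interaction edgeR and DESeq2 each called 0 genes (0%), and 235 genes had an unadjusted edgeR p under 0.05, none of them among the 9.

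Levels were compared between genes per kilobase of combined exon length. Tomm20 was highest, at 67.2 ± 5.70 CPM per kb (SD, n = 12), and above Tomm6 (45.5 ± 2.81) in 12 of 12 libraries. Tomm34, Tomm7 and Tomm22 followed close together at 28.5 ± 7.10, 25.7 ± 2.41 and 25.6 ± 1.09 CPM per kb, and Tomm34 exceeded Tomm7 in only 7 of 12 libraries. Tomm70a (22.1 ± 1.72), Tomm5 (15.5 ± 1.31) and Tomm40 (15.4 ± 0.717) came next, where Tomm5 exceeded Tomm40 in 5 of 12, and Tomm40l was lowest at 8.85 ± 0.620 CPM per kb, below Tomm40 in 12 of 12 libraries. Tomm34 had a different place in the order in each genotype: 34.8 ± 3.57 CPM per kb in WT, above Tomm7 (25.9 ± 3.21), and 22.3 ± 2.23 in KO-labelled libraries, below Tomm7 (25.4 ± 1.54) and beside Tomm70a (22.3 ± 1.68). The small subunits Tomm6, Tomm7 and Tomm5 were thus not alike in level.

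**Figure D4:**
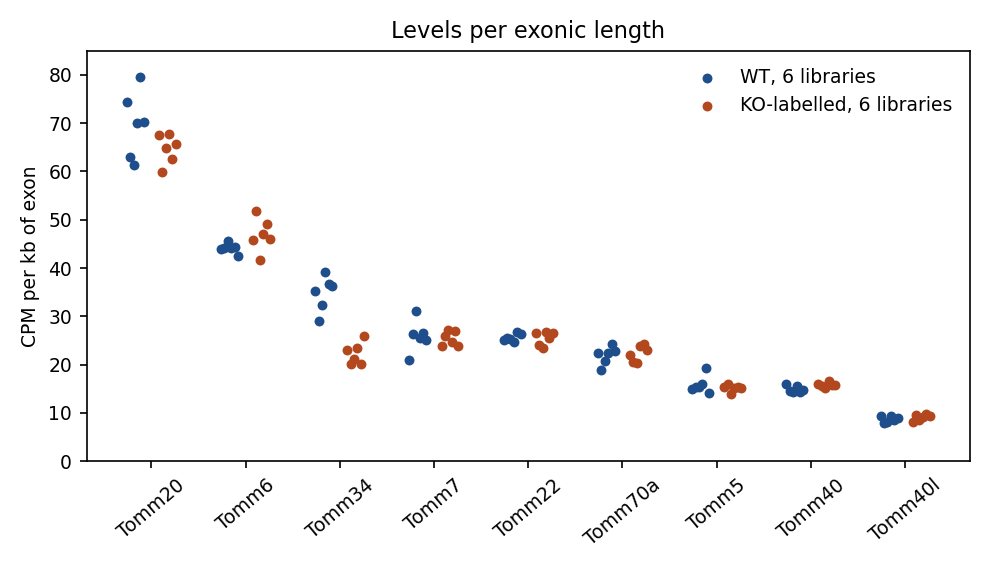
Levels of the 9 genes in CPM per kilobase of combined exon length for WT and KO-labelled libraries (points are libraries, 6 a genotype). The order runs from Tomm20 at a mean of 67.2 to Tomm40l at 8.85 CPM per kb. The genotypes overlap for each gene but Tomm34, which was chosen for its genotype difference, so nothing is read from that.

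Per-length values are approximate where exons overlap another gene, since no source used here states whether reads were counted by strand. Of the exonic bases of Tomm40l, 64.3% overlap Nr1i3 on the opposite strand, a gene counted at only 0.194 CPM. Tomm6 shares 76.0% of its exonic bases with the annotated same-strand gene Gm21981, which was not matched in the files, and 219 bases with the antisense gene Tomm6os (4.90 CPM). Tomm34 overlaps the opposite-strand kinase gene Stk4 (64.6 CPM) at its 5′ end but shares 0 exonic bases with it. Reads in the shared stretches of Tomm6, Tomm40l, Tomm40 and Tomm70a cannot be assigned by these counts, while the exons of Tomm34 are free of annotated overlap.

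The genes around Tomm34 were compared between genotypes in the same fit. Of 16 genes tested within 500 kb, 0 passed edgeR's test between genotypes (0.576% of all genes did), 2 had an unadjusted p under 0.05 (2254 of all 15622 genes did), and 10 lay lower in KO-labelled libraries, with a median log2 fold change of -0.02. Stk4, whose start lies beside that of Tomm34, had means of 62.8 ± 6.73 (WT) and 66.5 ± 6.81 CPM (KO-labelled), a log2 difference of 0.09 with SE 0.08 (edgeR adjusted p = 0.652). Ywhab, the nearest tested gene on one side and a 14-3-3 adaptor, had -0.01 (SE 0.09), and Kcns1, a potassium channel subunit and the nearest on the other, had 0.38 (SE 0.40). The lowest value, -1.46 (SE 1.22), belonged to Wfdc2, a gene that ranged from 0 to 16.6 CPM in WT, and the highest, 0.66, to Rims4 (edgeR adjusted p = 0.128). Ada had -0.51 (SE 0.50), and the errors of Wfdc2 and Ada are too wide to set either apart from Tomm34 or from 0.

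**Figure D5:**
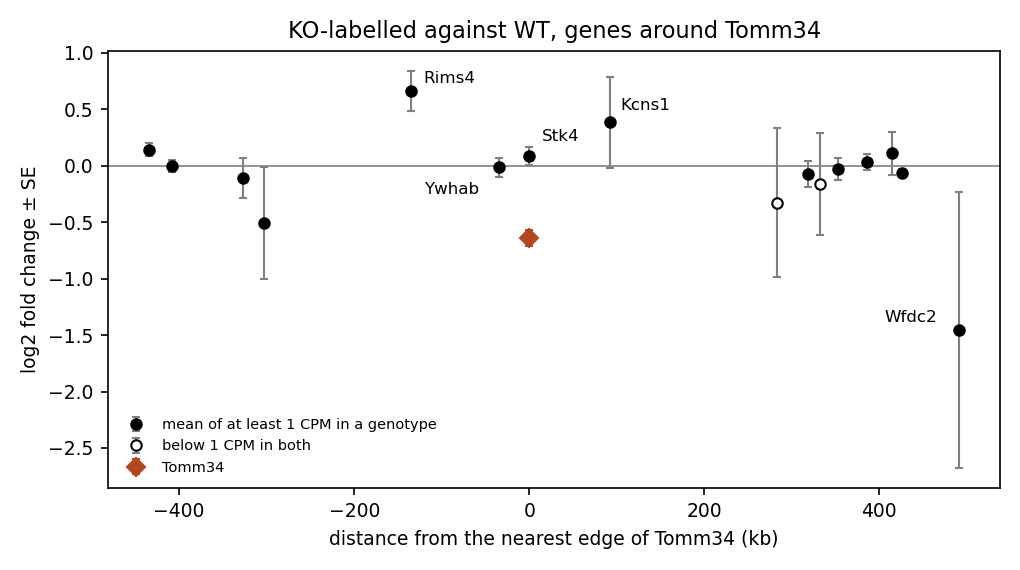
Log2 fold change (± SE) between KO-labelled and WT libraries for the 16 genes tested within 500 kb of Tomm34, by distance from its nearest edge. Open circles are genes below 1 CPM in both genotypes. Tomm34 stands at -0.64 and Stk4, which overlaps it, at 0.09.

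The pattern of Tomm34 over the 12 libraries was compared with 14101 genes of at least 1 CPM, by Pearson's r of log2(CPM + 1). The genes most like it were Trappc12 (r = 0.96), a TRAPP vesicle-tethering subunit, Csnk1d (0.95), casein kinase 1 delta, Alkbh5 (0.94) and Fto (0.94), both RNA demethylases, and Scrn3 (0.94). These 5 were picked by r over the same libraries, which fall into 2 genotype clusters. Within WT and within KO-labelled libraries (n = 6 each), Trappc12 had 0.80 and 0.97, Csnk1d 0.93 and 0.63, Alkbh5 0.53 and 0.72, Fto 0.71 and 0.79, and Scrn3 0.75 and 0.41. Those values still hold the shift with training. For deviations from the 4 group means, r was 0.81 for Trappc12 and 0.76 for Csnk1d but 0.40 for Alkbh5, 0.39 for Fto and 0.14 for Scrn3. Of the TOM genes, Tomm20 came nearest, in place 457 with 0.65 over the 12 libraries and 0.53 for deviations. Tomm40 had -0.47 over the 12 libraries but 0.48 within WT, 0.43 within KO-labelled libraries and 0.52 for deviations, so its sign turned once the gap between genotypes was removed. Tomm6 was negative on each measure, with -0.58, -0.29, -0.35 and -0.35 in the same order. All of these describe likeness over libraries that share depth and tissue makeup.

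Beyond the outer-membrane pore, 79 of 81 listed genes of protein import, chaperones and the outer membrane could be tested, and 1 of them passed between genotypes. With edgeR, Fundc2 was called lower in KO-labelled libraries, as were 0.192% of all genes, and none was called higher (0.576% were called in either direction); 10 of the 79 had an unadjusted p under 0.05, beside 2254 of all 15622 genes, and DESeq2 called 4, beside 4.64% of all genes. Fundc2 encodes an outer-membrane protein of the FUN14 family. It ran from 44.6 to 52.7 CPM across WT libraries and from 34.8 to 41.1 CPM across the KO-labelled. The genotypes did not overlap, as was so for 0.717% of all genes in this direction. The means of 49.2 ± 2.87 and 38.1 ± 2.38 CPM differed 1.29-fold, by -0.37 on the log2 scale with SE 0.05 (edgeR adjusted p = 0.0226). That call was made in 10 of 20 alternative settings (adjusted p from 1.34e-06 to 0.402), with log2 fold changes between -0.39 and -0.32, and leaving out any 1 of 7 libraries ended it, with adjusted p from 0.0518 to 0.0811; these were replicates 2 and 3 of the WT house controls, 1 and 3 of the trained WT mice and all 3 of the trained KO-labelled mice.

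In the other 7 lists edgeR called no gene between genotypes over both treatments, and DESeq2 called 1, Fkbp8. The cytosolic HSP90, HSP70 and J-domain chaperones, the partners of Tomm34, had 0 of 11 called and a median log2 fold change of 0.07, with the abundant HSP90 gene Hsp90ab1 at 0.07. The other tetratricopeptide co-chaperones had 0 of 14 called by edgeR and a median of -0.04. Their extremes were Fkbp4 (-0.17) and Fkbp8 (0.18, edgeR adjusted p = 0.165, DESeq2 adjusted p = 0.00822), the latter anchored in the outer membrane. The inner-membrane TIM23 translocase and its motor had 0 of 14 called and a median of -0.05, with Hspa9, the motor's HSP70, at -0.07. The TIM22 translocase and small TIM chaperones had 0 of 8 called and a median of -0.02, with the small chaperone gene Timm13 at 0.00.

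Of the remaining lists, the sorting and insertion machinery of the outer membrane had 0 of 7 called with a median of 0.03 (the insertase gene Mtch1 had 0.04), the disulfide relay of the intermembrane space 0 of 3 with 0.03 (Aifm1, 0.03), and the presequence peptidases 0 of 6 with -0.07 (Pmpca, 0.01). Among the 16 other outer-membrane genes the channel gene Vdac1 had means of 343 ± 18.1 (WT) and 388 ± 9.47 CPM (KO-labelled) without overlap, as did 1.06% of all genes in this direction; its log2 difference of 0.18 (SE 0.05) missed the threshold (edgeR adjusted p = 0.128). Over all 79 genes 38 were positive and the median was -0.01, the same as over all genes. Within treatments edgeR called 0 of the 79 in house controls and 0 in trained mice, with 8 and 5 at an unadjusted p under 0.05 (1668 and 1008 of all 15622 genes), and DESeq2 called 2 and 1 (1.29% and 0.679% of all genes). For training over both genotypes, edgeR called 0 of the 79 (0% of all genes). Of the 79, 56 were positive, beside 47.7% of all genes, with a median of 0.06. Within either genotype and for the interaction edgeR and DESeq2 called 0 of the 79. Over both genotypes all 11 cytosolic chaperones had positive values for training, with a median of 0.14 and 0 called, among them Hsp90ab1 at 0.14. In WT alone 10 of the 11 were positive, with Dnaja4 at -0.06. Tomm34, at 0.16 over both genotypes, lay near the median of those chaperones, and a link between them was not tested.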

How the data were processed

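The authors deposited 1 file of raw counts per library (whole reads per gene symbol) from dorsal hippocampus. Per the labels' protocols, polyadenylated RNA was isolated from 1 µg RNA and sequenced from NEBNext Ultra II libraries. The submitters' processing notes name mm10, HTSeq 0.9.1, TopHat2 2.1.1 and Bowtie2 2.3.4.2, cutadapt 1.18 and DESeq2 1.18.1; the annotation and strand setting are not given in the sources used here. A further 4 files hold the authors' own pairwise comparisons. Per the file headers, each gene has a signal (mean of normalized counts), a log2 fold change with its error, a score (the test statistic) and p-values before and after adjustment, all deposited as the authors computed them.

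Groups follow the labels, and replicate numbers, in accession order, pair no libraries. Counts were fitted in R 4.3.3 with edgeR 4.0.16: filterByExpr (minimum count 10, total 15) kept 15622 genes, libraries were scaled by TMM, and 1 robust quasi-likelihood model with 4 group means gave 7 contrasts with 8 residual degrees of freedom. Benjamini-Hochberg adjustment covered the 15622 genes, with a threshold of 0.05. Standard errors are those implied by the F statistic and intervals use the test's degrees of freedom. CPM uses TMM-scaled library sizes. DESeq2 1.42.0 was an alternative. Alternatives also changed scaling, filter, the title-number range as a covariate and the libraries used. The scripts were tested on simulated data. No 2 libraries of a group agreed within sampling noise (chi-square per degree of freedom 14.9 to 105).

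Exon lengths and locations are from GENCODE M21, which matched 15037 of the tested symbols. The members and the gene and marker lists were chosen with earlier results of these data known. Genes were named by rule: all 9, Mbnl2, in each list those called in any contrast and the gene with the highest mean CPM, the nearest tested genes and overlapping genes, the 5 most like Tomm34, and the highest marker of a list. Ada, Fkbp4, Fundc1, Rims4 and Wfdc2 were named after their values were seen. Timm29 was not matched in the files. The highest markers of the 11 marker lists, whose levels are given as list sums, were Nrip3, Dsp, Snap25, Mbp, Slc1a2, Csf1r, Flt1, Ttr, Igf2, Prkcd and Pde10a.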

Additional observations from a re-analysis of the deposited data

Results flagged for a closer look

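Tomm5 stood apart in 1 library. Replicate 2 of the trained WT mice had 16.7 CPM, where the next of the 6 WT libraries had 13.8 and the lowest 12.3 CPM, so the gap took 0.662 of the range of the group. The same library, at 16.7 CPM, stood apart in the same way among the 6 trained libraries. Chance sets about 1 in 20 groups apart like this, and 36 groups of the 9 genes were looked at.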

How the results depend on the processing

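None of the 9 genes was called in the contrasts where they were counted, in any of the 20 or 21 alternatives run for each. The Tomm34 genotype difference, for which the gene was chosen, stayed between -0.70 and -0.56 over both treatments. It stayed between -0.67 and -0.59 when 1 library was left out. Its training adjusted p ran from 0.173 to 1.00 over the alternatives, and its interaction reversed from -0.10 to 0.0173 without replicates 2 and 3 of the WT house controls and replicate 3 of the KO-labelled house controls; the cause was not tested.

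The number of import-related genes called between genotypes, 1 in the fit reported, was 4 with DESeq2 (Fundc2, Fundc1, Vdac1 and Fkbp8), and 0 in libraries 1 to 8, without those 3 libraries or without the 2 KO-labelled libraries rich in striatum transcripts (replicate 2 of each group). It ran from 0 to 2 when 1 library was left out. DESeq2 called 2 in house controls and 1 in trained mice, where edgeR called 0. The cause of these shifts was not tested, and the fits to subsets also had fewer libraries. Over all genes the count between genotypes, 90 in the fit reported, was 725 with DESeq2, 166 with the title-number range as a covariate, 59 with no filter, 26 without the striatum-rich libraries, 2 in libraries 1 to 8 and 1 without the 3 thalamus-rich libraries, and ran from 8 (without replicate 3 of the trained WT mice) to 268 (without replicate 1 of the WT house controls) with 1 library left out. Over the alternatives it ran from 0 to 202 in house controls and from 1 to 106 in trained mice, against 2 in each, and for training from 0 to 69 over both genotypes, 0 to 16 in WT and 0 to 7 in KO-labelled mice, against 0, with the highest values from DESeq2; the interaction count was 0 throughout.

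No paired analysis was possible because the labels give no replicate numbers shared between groups. With 3 libraries a group, small differences in the TOM genes are below what these intervals resolve.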
